A study of Mus musculus with 4 samples.

Results

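The ES–ELA transition of cells that had been kept in 2iL was read by comparing the ELA 2iL library with the ES 2iL library over all 1907 mature miRNAs listed. These are 2 of the 4 small RNA libraries of the study, and each is 1 library. The members are all listed miRNAs, and no measured value was used to choose them. Both libraries come from E14Tg2A, a single mouse embryonic stem (ES) cell line of 129/Ola origin with no engineered allele. ES 2iL (day 0) are ES cells switched for several passages to 2iL, a serum-free N2/B27 medium with 1000 U/mL leukemia inhibitory factor (LIF), 1 µM of the MEK inhibitor PD0325901 and 3 µM of the GSK3 inhibitor CHIR99021. ELA 2iL (day 2) are epiblast-like aggregates: the same cells after 2 days as floating aggregates in chemically defined minimal medium, with no LIF and no inhibitors. The serum pair (ES serum and ELA serum) differs only in that its ES cells were kept in fetal calf serum with LIF, and its values stand beside those of 2iL where they bear on them. Each library was made from pooled RNA of 3 sets of experiments. No spread between experiments can be measured, no test of this comparison is possible, and the intervals below cover counting error only.

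A mature miRNA guides the Argonaute proteins of the RNA-induced silencing complex to mRNAs, mainly through pairing of its seed, bases 2 to 8 from the 5′ end. miRNAs that share a seed can bind the same sites, so a family is read both by its members and by its pooled seed. In mouse pluripotent cells the miR-290/miR-295 cluster is typical of the naïve, ground state and the miR-302/miR-367 cluster of the primed state of the epiblast after implantation. The paralogous miR-17/miR-92, miR-106a/miR-363 and miR-106b/miR-25 clusters carry near-identical seeds and act on the cell cycle. The let-7 family marks differentiation and is held down in pluripotent cells. The prefix mmu- of each name is left out in the text.

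The sequences that carry the comparison are shown first, as RefSeq gives them, 5′ to 3′, with the seed in capitals. miR-302b-3p and miR-302d-3p, of the primed cluster, have the seed of miR-291a-3p, miR-294-3p and miR-295-3p, of the naïve cluster. The seed of the miR-17 group holds the same hexamer shifted by 1 base.
miR-302b-3p: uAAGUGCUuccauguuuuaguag
miR-302d-3p: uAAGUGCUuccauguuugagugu
miR-291a-3p: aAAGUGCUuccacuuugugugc
miR-294-3p: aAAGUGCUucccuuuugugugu
miR-295-3p: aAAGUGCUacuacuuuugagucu
miR-20b-5p: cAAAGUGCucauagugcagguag
miR-106a-5p: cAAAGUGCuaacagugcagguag
miR-93-5p: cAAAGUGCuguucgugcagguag
The next group shows a shared seed whose members went opposite ways. miR-363-3p was higher in ELA 2iL and miR-92b-3p lower, while miR-92a-3p, by far the most abundant, differed by less than 1.
miR-363-3p: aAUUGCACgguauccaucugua
miR-92a-3p: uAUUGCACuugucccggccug
miR-92b-3p: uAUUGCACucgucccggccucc
The last group shows the miR-181 family, in which miR-181c-5p and miR-181d-5p were lower and miR-181a-5p was not, together with miR-653-5p, among the largest rises, and miR-211-5p, the largest fall.
miR-181a-5p: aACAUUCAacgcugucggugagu
miR-181c-5p: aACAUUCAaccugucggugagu
miR-181d-5p: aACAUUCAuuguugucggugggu
miR-653-5p: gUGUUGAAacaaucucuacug
miR-211-5p: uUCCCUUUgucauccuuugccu

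ES 2iL held 2767016 reads and ELA 2iL 587363, so 1 read was worth 0.361 RPM (reads scaled to a common total of miRNA reads) in ES 2iL and 1.70 RPM in ELA 2iL, the shallowest of the 4 libraries. A count of 0 allows up to 3 reads, which is 1.08 RPM in ES 2iL and 5.11 RPM in ELA 2iL. Reads were found for 1010 miRNAs in either library, for 650 in both, for 319 in ES 2iL alone and for 41 in ELA 2iL alone. The description field of the labels exchanges ES 2iL with ELA serum, whereas titles, source names, day, medium and column names all give the grouping used here. Differences are on log2(RPM + 1), ELA 2iL minus ES 2iL, and understate the change of low miRNAs. A miRNA is called changed where its mean over both libraries is at least 5 (31 RPM, or 18.2 reads in ELA 2iL) and its difference at least 1 in size. Of the 314 miRNAs that passed this mean, 48 were higher in ELA 2iL (15.3%) and are called rises, and 79 were lower (25.2%) and are called falls. A miRNA that is high in 1 library alone can pass the mean through that library, so every count of members that passed is a description, to be read beside these 2 shares. For all 127 the exact 95% interval of the ratio of reads was clear of no change. The 48 took 3.09% of the reads in ES 2iL and 10.9% in ELA 2iL, and the 79 took 17.1% and 5.31%.

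The rises were steeper than the falls at the extreme. There were 5 rises of at least 4 on the log2 scale, of which 4 belong to the miR-302/miR-367 cluster, and 2 falls of that size. The median of the 314 miRNAs was −0.30, and it was −0.14 with TMM factors, −0.18 with DESeq2 size factors and −0.05 with totals that leave out the 5 most abundant miRNAs. Under that last scaling the split turned to 64 higher and 57 lower, or 52.9% of the changed miRNAs higher against 37.8% in RPM. All 127 kept their direction under each of the 4 scalings. The other 3 scalings moved the differences by a median of 0.12 to 0.25, so a size of at least 1 fixed this in advance.

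**Figure D1:**
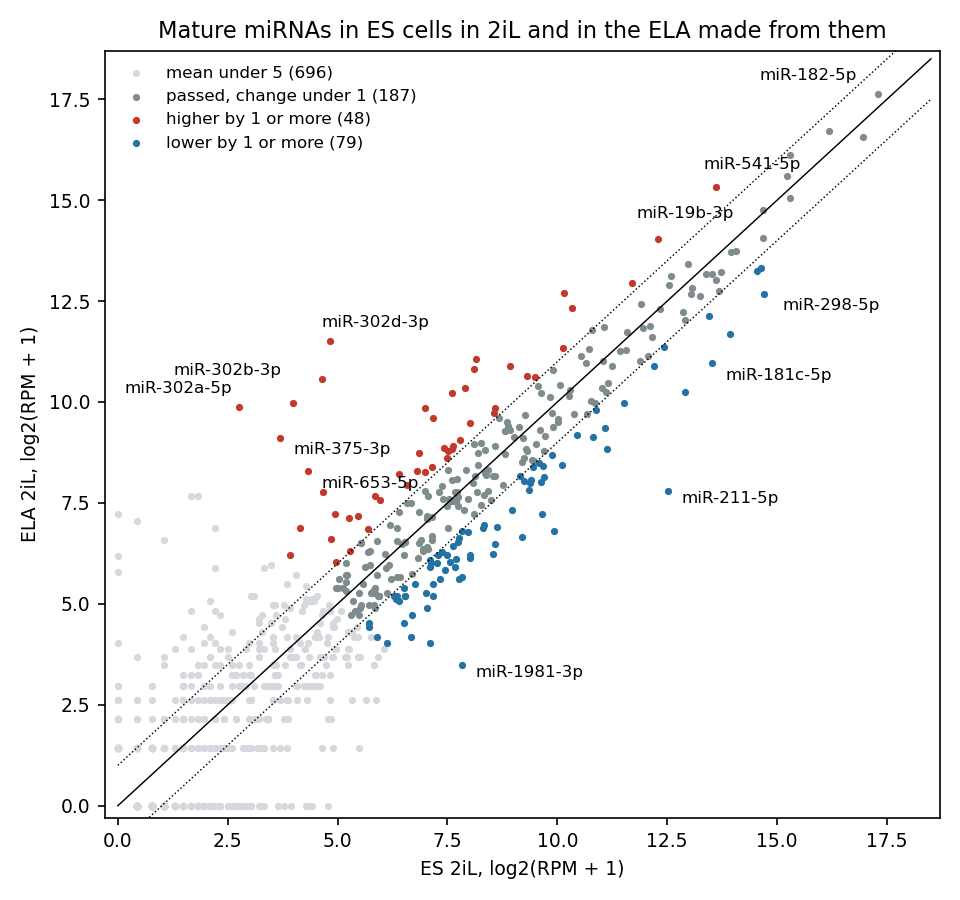
Level of each miRNA in ES 2iL (x axis) and ELA 2iL (y axis), both as log2(RPM + 1), 1 library each. The solid line marks equal levels and the dotted lines a difference of 1. The 48 miRNAs higher by at least 1 (red) include the miR-302 members far above the line, and miR-211-5p and miR-1981-3p lie farthest below it among the 79 lower (blue).

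The miR-302/miR-367 cluster gave the largest rises of the comparison. Its 5 hairpins lie within chr3:127248146-127248725 of mm9 (+ strand), a stretch with no gene on that strand in GENCODE vM1 and with Larp7 on the opposite strand. miR-302d-3p, its most abundant member, was at 27.5 RPM in ES 2iL and 2930.0 in ELA 2iL, against 2451 in ES serum and 16726 in ELA serum. That is 107-fold higher in ELA 2iL (exact 95% interval 84.8 to 136). miR-302a-5p was at 5.78 RPM in ES 2iL, 939.8 in ELA 2iL, 335 in ES serum and 1845 in ELA serum. Its difference of 7.12 was the largest of all miRNAs that passed the mean. Both miRNAs were lowest in ES 2iL of the 4 libraries, and miR-302d-3p of ELA 2iL stood near the level of ES serum.

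The other members followed. miR-302a-3p went from 14.8 to 999 RPM (log2 difference 5.98) and miR-302b-3p from 24.2 to 1524 RPM (5.92). Only these 4 of the 10 listed members passed the mean, and all 4 were higher. They passed it through ELA 2iL, so this count is a description. The remaining 6 had 0 to 7 reads in ES 2iL. miR-302c-3p went from 6 reads to 119, miR-302d-5p from 7 to 119, miR-302c-5p from 1 to 77 and miR-367-3p from 3 to 56. For miR-367-3p that is a ratio of 87.9 (exact interval 28.6 to 439) and for miR-302c-5p of 362.7 (63.2 to 14511). miR-302b-5p was at 0 reads in ES 2iL and 32 in ELA 2iL, at least 50.2-fold higher against a floor of 3 reads in ES 2iL. With the counting error of the 32 reads included, the exact 95% lower bound is 38.6-fold. miR-367-5p, with 0 and 3 reads, was at or under the floor in both. Over all 10 members the median difference was 5.95, against −0.45 over the 1010 miRNAs with reads. Their joint share was 0.00784% for ES 2iL (Wilson 95% interval 0.00687 to 0.00896) and 0.708% for ELA 2iL (0.687 to 0.730). The shares in ES serum and ELA serum were 0.595% and 3.73%. The 3p arms of miR-302a, miR-302b and miR-302d are alike over most of their length, and how the authors assigned reads that match several of them is not given in the sources used here.

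The miR-290/miR-295 cluster, by contrast, stayed near the median of all miRNAs and remained among the most abundant groups. Its hairpins with reads lie within chr7:3218639-3220842 of mm9 and overlap no other gene on their strand in GENCODE vM1. Together they made up 18.3% of all reads from ES 2iL (18.29 to 18.38) and 14.1% of those from ELA 2iL (13.99 to 14.16). The serum shares were 8.61% for ES cells and 5.55% for ELA. miR-295-3p alone was at 126073 RPM in ES 2iL and 96518 RPM in ELA 2iL, 1.31-fold lower, and at 49948 in ES serum and 35327 in ELA serum. It was the second most abundant miRNA in ES 2iL and the third in ELA 2iL, and both 2iL libraries stood above both serum libraries.

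Of its 18 listed members, 10 passed the mean, none was higher by 1 and 2 were lower, a share near the 25.2% lower over all miRNAs. These were miR-291b-5p (179 RPM in ES 2iL and 73.2 in ELA 2iL, difference −1.28) and miR-291b-3p (153 and 63.0, −1.27), both of low level. The other 8 differed by −0.56 (miR-295-5p) to −0.21 (miR-291a-3p). miR-291a-3p turned to 0.04 with totals that leave out the 5 most abundant miRNAs, and the rest stayed below 0 under all 4 scalings. miR-293-5p went from 17066 to 13731 RPM, miR-291a-5p from 13522 to 9490 and miR-294-3p from 11759 to 9260. miR-293-3p went from 8382 to 6575 RPM and miR-294-5p from 957 to 667. miR-292b-3p (19 and 5 reads) and miR-290b-3p (5 and 4 reads) had few reads, and the intervals of their ratios include no change. The other 6 are listed at 0 in all 4 libraries: miR-290a and miR-292a (5p and 3p of each), miR-290b-5p and miR-292b-5p. The hairpins of miR-290b and miR-292b lie on the opposite strand at the places of miR-290a and miR-292a, and whether the authors counted reads by strand is not given in the sources used here.

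**Figure D2:**
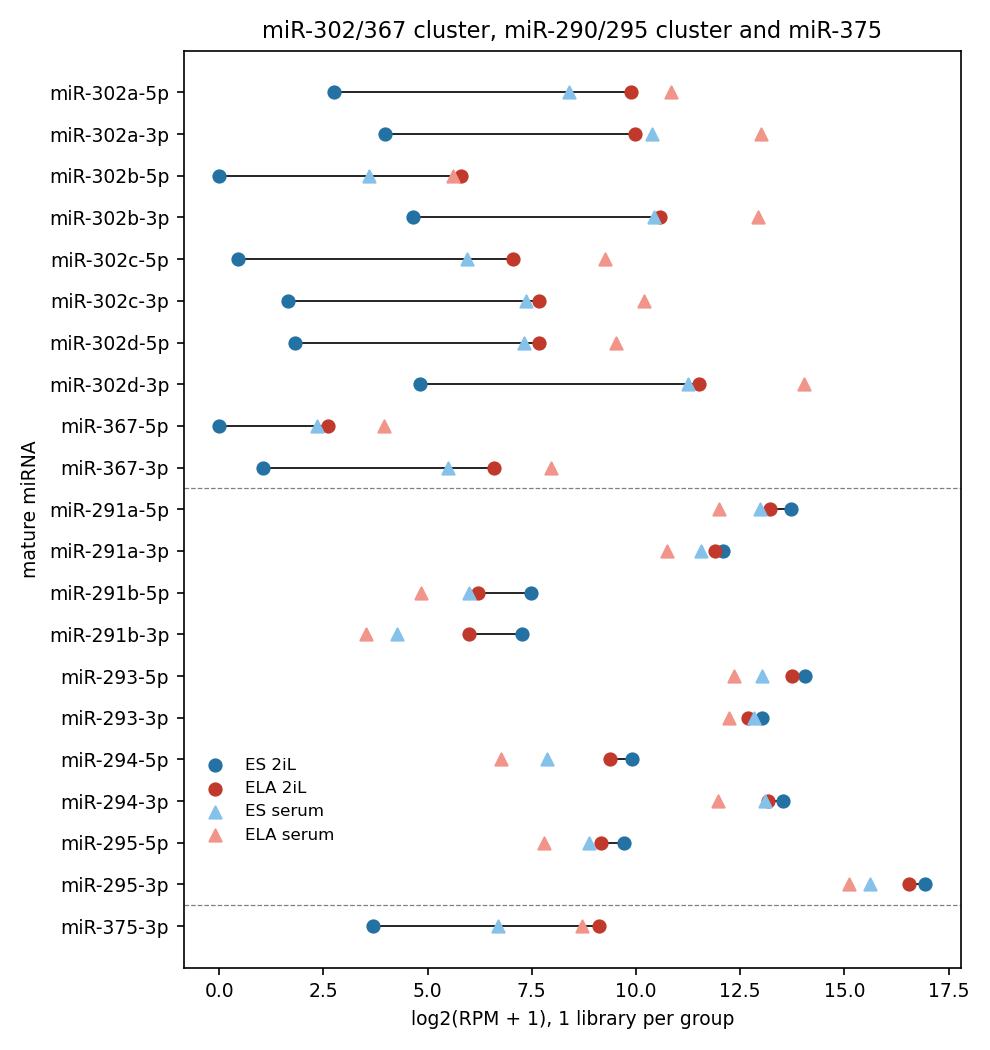
Levels of all 10 miRNAs of miR-302/miR-367, of the 10 miRNAs of miR-290/miR-295 that passed the mean, and of miR-375-3p, as log2(RPM + 1) in each of the 4 libraries. The line joins ES 2iL and ELA 2iL. It is long for miR-302/miR-367 and miR-375-3p and short for miR-290/miR-295, where all 10 lines run to lower values in ELA 2iL.

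The pooled seed of both clusters did not follow the miR-302 rise. The seed AAGUGCU held 14.2% of the reads in ES 2iL and 11.4% in ELA 2iL, a change of −2.82 percentage points. miR-302a-3p (14.8 to 999 RPM), for which no sequence was at hand, is not in this pool. miR-295-3p made up 88.6% of this pool in ES 2iL and 84.6% in ELA 2iL. miR-302b-3p and miR-302d-3p made up 0.0170% and 0.0193% of the pool in ES 2iL and 1.34% and 2.57% in ELA 2iL. Without miR-295-3p the pool was 1.85% of the remaining reads in ES 2iL and 1.94% in ELA 2iL, so the direction of the change rests on that miRNA. Seeds could be assigned to 847 of the 1010 miRNAs with reads, which held 95.3% of the reads in ES 2iL and 96.7% in ELA 2iL.

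The paralogous clusters of the miR-17 group parted. In the miR-106a/miR-363 cluster (X chromosome, chrX:50094870-50095744 of mm9, − strand), 7 of the 10 members passed the mean and all 7 were higher, beside 15.3% over all miRNAs. The median of the 10 members with reads was 2.62. miR-20b-5p was at 282 RPM in ES 2iL, 2150 in ELA 2iL, 659 in ES serum and 1824 in ELA serum. Between the 2iL libraries that is 7.62-fold higher (6.96 to 8.34). miR-20b-3p went from 16.6 to 117 RPM (2.75), miR-106a-5p from 275 to 1789 RPM (6.51-fold, 5.93 to 7.16) and miR-18b-5p from 193 to 1199 RPM. miR-363-3p, its most abundant member, went from 1291 to 5108 RPM. In serum it went from 4160 to 8137 RPM, so that ELA 2iL lay between the serum libraries. The share of the whole cluster went from 0.227% to 1.12% of the reads.

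In the miR-17/miR-92 cluster (chr14:115442893-115443728, + strand, in exons of Mir17hg), 5 of the 10 members that passed the mean were higher (6 under each of the other 3 scalings) and none was lower, beside 15.3% higher and 25.2% lower over all miRNAs. miR-19a-3p was at 1141 RPM in ES 2iL, 6677 in ELA 2iL, 403 in ES serum and 737 in ELA serum, the highest level being that of ELA 2iL. Its difference was 2.55 in 2iL (5.85-fold). miR-19b-3p went from 5032 to 16930 RPM (1.75), miR-20a-5p from 1115 to 2566 (1.20) and miR-18a-5p from 721 to 1568 (1.12). miR-17-5p (1481 to 2264 RPM, 0.61) and miR-92a-3p (74623 to 107463 RPM, 0.53) stayed under the limit. Members encoded in the same transcript thus differed from each other. Mature miR-19b-3p and miR-92a-3p are also encoded in the X-linked cluster, so their reads cannot be told apart by locus. Of the 5p arms that name the locus, those of miR-19b were low. miR-19b-1-5p went from 10.5 to 30.6 RPM and miR-19b-2-5p, of the X chromosome, from 3.61 to 57.9 RPM. For miR-92a, the arm from Mir17hg was abundant and the X-linked arm low. miR-92a-1-5p, of Mir17hg, went from 1779 to 3499 RPM, a difference of 0.98 that passed 1 under the other 3 scalings. miR-92a-2-5p, of the X chromosome, went from 3.98 to 25.5 RPM. The part of each locus in the reads of miR-92a-3p was not tested.

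The miR-106b/miR-25 cluster, in Mcm7 (chr5:138606549-138607046, − strand), had no member higher by 1 and 2 of 6 lower, beside 25.2% lower over all miRNAs. Under each of the other 3 scalings 1 was lower, as miR-93-3p (−1.11 in RPM) no longer reached the limit. miR-93-5p was at 11258 RPM in ES 2iL, 4486 in ELA 2iL, 2778 in ES serum and 2274 in ELA serum, 2.51-fold lower in ELA 2iL than in ES 2iL. miR-93-3p went from 166 to 76.6 RPM and miR-106b-5p from 915 to 1112 RPM. miR-25-3p (10675 and 9180 RPM) had a difference of −0.22 that turned to 0.03 with totals that leave out the 5 most abundant miRNAs, as did the median of the cluster (−0.19, turning to 0.05). In the seed pool AAAGUGC the shifts nearly offset: it held 1.53% of the reads in ES 2iL and 1.44% in ELA 2iL. Within it, miR-93-5p went from 73.5% of the pool to 31.2%, and miR-20b-5p and miR-106a-5p from 1.84% and 1.79% to 15.0% and 12.5%.

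**Figure D3:**
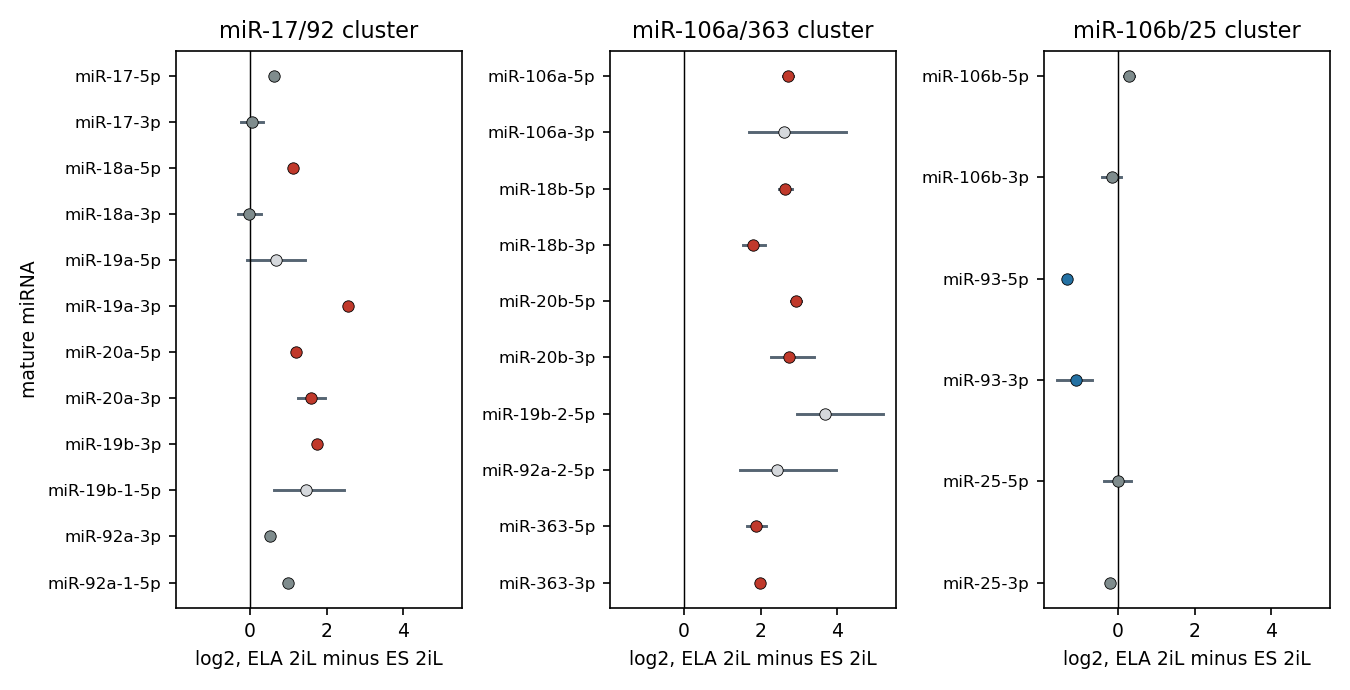
Difference of each member of the paralogous clusters miR-17/miR-92, miR-106a/miR-363 and miR-106b/miR-25, ELA 2iL minus ES 2iL on log2(RPM + 1), with the exact 95% counting interval of the log2 ratio of reads (bars, narrower than the point for abundant members). Red points are higher and blue points lower by at least 1, dark grey points changed less, and light points had a mean under 5. All members of miR-106a/miR-363 lie to the right of 0, and the arms of miR-93 lie to the left.

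Among the other seed pools, those of largest share or largest change were mostly made up of 1 miRNA. The pool of miR-182-5p (UUGGCAA) went from 16.2% to 20.4% of the reads and remained the largest. The pool AUUGCAC went from 9.45% to 12.3%, and without miR-92a-3p from 2.15% to 1.76%, so it turned. In it, miR-363-3p was higher (1.98), miR-92b-3p was lower (7698 to 1216 RPM, −2.66) and miR-25-3p was near its starting level. miR-127-3p (CGGAUCC) went from 4.003% to 7.13%, miR-541-5p (AGGGAUU) from 1.26% to 4.08% and miR-191-5p (AACGGAA) from 4.03% to 3.40%. The direction of miR-191-5p was lost with totals that leave out the 5 most abundant miRNAs (0.00). miR-182-5p, miR-183-5p and miR-96-5p, of 1 cluster known from epithelia and sensory organs, differed by 0.33, 0.38 and 0.36 and together with their other arms took 20.2% and 25.6% of the reads. The 3p arms went the other way, with miR-182-3p lower (51.3 to 22.1 RPM, −1.18) and miR-183-3p at −0.41. Of the 5 arms that passed the mean, 1 was thus lower and 0 higher in RPM, and none was lower by 1 with totals that leave out the 5 most abundant miRNAs. The median of the 6 arms with reads was −0.04.

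miR-375-3p, known from pancreatic islets and endoderm, was, among the miRNAs that passed the mean, the largest rise outside the miR-302/miR-367 cluster. It was at 11.9 RPM in ES 2iL, 549.9 in ELA 2iL, 102 RPM in ES serum and 416 RPM in ELA serum, with both ELA libraries above both ES libraries. In 2iL that is 46.1-fold higher (32.2 to 68.1). miR-653-5p, from an intron of Calcr (chr6:3671301-3671385, − strand), went from 19.2 to 309.9 RPM, 16.2-fold higher (11.9 to 22.4). In serum it was at 476 RPM in ES cells and 1774 RPM in ELA. miR-3535 went from 126 to 929.6 RPM (2.87). Its hairpin (chr1:88248556-88248702, − strand) lies in an intron of Ncl and overlaps an exon of SNORD20, a small nucleolar RNA gene. Whether its reads come from SNORD20 was not tested. The 12 largest rises, picked by size among miRNAs with intervals clear of 0, were 4 miR-302 members, 4 members of the miR-106a/miR-363 cluster, miR-375-3p, miR-653-5p, miR-221-5p and miR-3535. In serum, 11 of the 12 were also higher by at least 1, and miR-221-5p was not (176 and 206 RPM). The share of all miRNAs higher by at least 1 in serum was not counted, so the 11 are a description.

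The pair miR-221 and miR-222, known to act on the cell-cycle inhibitor p27Kip1 and lying next to each other on the X chromosome (chrX:18723420-18724097), had 3 of its 4 members pass the mean, all of them higher, beside 15.3% over all miRNAs. miR-221-5p, under 31 RPM in ES 2iL, passed through ELA 2iL. miR-221-5p went from 24.6 to 216 RPM (8.80-fold), miR-221-3p from 111 to 313 and miR-222-3p from 180.3 to 441 RPM. Their levels in ES serum were 176, 128 and 179.8 RPM, so ES 2iL was below ES serum for both arms of miR-221 and within 1 RPM of it for miR-222-3p. In the miR-34 family, whose genes are targets of p53, miR-34c-5p went from 143 to 783 RPM (5.47-fold, 4.77 to 6.28). miR-34b-5p, with a mean under 5, went from 10.1 to 61.3 RPM, and miR-34a-5p, from another locus, was at 598 and 555 RPM with an interval that includes no change. miR-449c-5p, in an intron of Cdc20b, went from 3.61 to 117 RPM.

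The imprinted Dlk1-Dio3 region, a large set of maternally expressed miRNAs, took 10.5% of the reads in ES 2iL and 18.4% in ELA 2iL, against 29.3% and 34.5% in serum. Of its 102 listed members 56 passed the mean, of which 13 were higher and 2 lower, beside 15.3% higher and 25.2% lower over all miRNAs. The higher ones were 16 with TMM or DESeq2 factors and 20 with totals that leave out the 5 most abundant miRNAs. The median of the 89 members with reads was 0.55 against −0.45 over all miRNAs with reads. miR-127-3p, antisense to Rtl1 (chr12:110831056-110831125), was at 40028 RPM in ES 2iL, 71252 in ELA 2iL, 174652 in ES serum and 185924 in ELA serum. miR-541-5p went from 12570 to 40786 RPM (1.70) and miR-134-5p from 484 to 1895 RPM (1.97). miR-409-5p, from an intron of Mirg, had the largest difference of the members that passed the mean (237 to 1301 RPM, 2.45), and both serum libraries were higher still (7091 and 9986 RPM). For each of these 4, both 2iL libraries were below the ELA serum library. The 2 lower members were miR-431-5p (1895 to 896 RPM) and miR-668-3p (155 to 73.2 RPM), and neither passed the limit under the other 3 scalings.

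**Figure D4:**
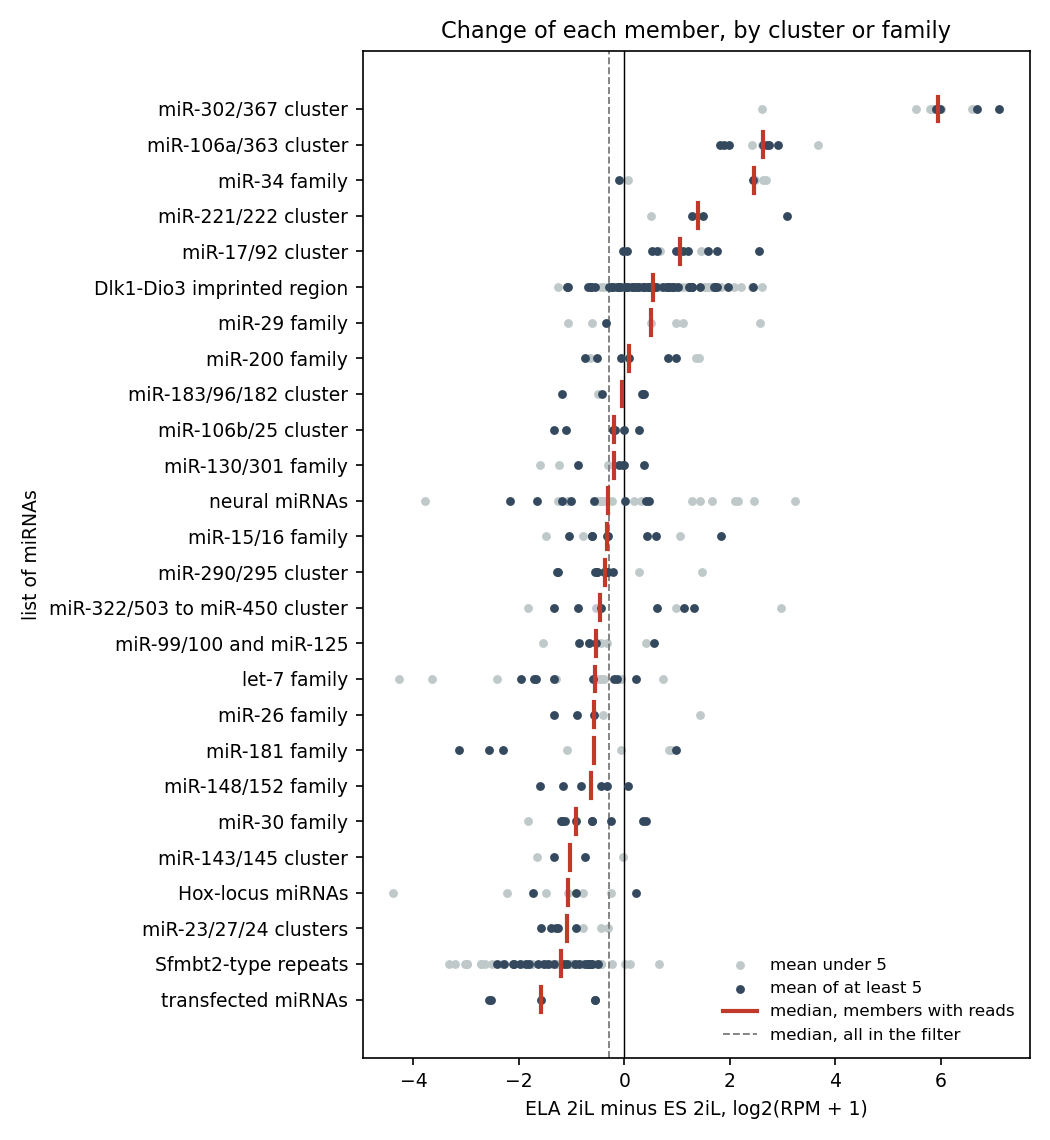
Difference of each member with reads, ELA 2iL minus ES 2iL on log2(RPM + 1), for 26 lists of clusters and families (y axis). Dark points passed the mean of at least 5, light points did not. Red bars are medians over members with reads and the dashed line is the median of the 314 miRNAs (−0.30). The median that matches the bars, over all 1010 miRNAs with reads, was −0.45 and is not drawn. Only miR-302/miR-367, miR-106a/miR-363, miR-34, miR-221 with miR-222, and miR-17/miR-92 have a median above 1.

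The largest fall was that of miR-211-5p, from an intron of Trpm1 (chr7:71350692-71350797, + strand) and known from melanocytes. It was at 5847 RPM in ES 2iL and 223 RPM in ELA 2iL, 26.2-fold lower (log2 interval −4.97 to −4.46). In serum it was at 8.69 RPM in ES cells and 4.87 RPM in ELA, so even after the fall ELA 2iL was far above both serum libraries. miR-1981-3p, from an intron of Mosc2, went from 228 to 10.2 RPM (631 to 6 reads) and miR-1981-5p from 136 to 15.3 RPM (377 to 9 reads). miR-193a-3p went from 102 to 17.0 RPM, with 10 reads left. These 4 shared a pattern: each was at 3.72 to 15.5 RPM in ES serum, and ELA 2iL stood between ES 2iL and the serum libraries, or for miR-1981-3p below ES serum.

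The miR-181 family, known from lymphocytes, differed by locus. miR-181c-5p was at 11821 RPM in ES 2iL, 1983 in ELA 2iL, 3162 in ES serum and 603 in ELA serum. It was 5.96-fold lower in 2iL, and the groups were ordered alike in both media. miR-181d-5p, from the same locus on chromosome 8, went from 2252 to 455 RPM (4.95-fold lower), and miR-181c-3p from 976 to 111 RPM (8.82-fold lower). miR-181a-5p, with the same seed but from other loci, was at 45.2 RPM in ES 2iL and 90.2 RPM in ELA 2iL, a difference of 0.98 that reached 1 under the other 3 scalings. The median over the 8 members with reads was −0.57. The 4 not named so far had 4 to 23 reads in ES 2iL and differences of −1.08 to 0.89. The seed pool ACAUUCA went from 1.41% of the reads to 0.254%.

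Other falls were spread over several families. miR-92b-3p was 6.33-fold lower (7698 to 1216 RPM) and miR-22-3p, from an exon of 2210403K04Rik (chr11:75277218-75277312, + strand), 4.74-fold lower (15475 to 3265 RPM). miR-150-5p, known from mature lymphocytes, went from 581 to 100.4 RPM. In serum these were at 3745, 6896 and 363.3 RPM in ES cells and 1940, 2369 and 65.2 RPM in ELA, lower in ELA in each case. miR-298-5p, singled out after its values were seen, went from 26836 to 6568 RPM (−2.03). Of the 12 largest falls, 8 were also lower by at least 1 in serum. This too is a description, as the share of all miRNAs lower by at least 1 in serum was not counted.

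Of the Sfmbt2-type repeats, a large tandem cluster active in placenta and early embryo, 80 members were listed and 22 passed the mean. Of these 13 were lower and 0 higher, beside 25.2% lower and 15.3% higher over all miRNAs, and 11 or 12 were lower under the other scalings. Some passed through ES 2iL, such as miR-669d-5p (90.4 and 22.1 RPM) and miR-669o-3p (68.3 and 15.3 RPM). The median over the 68 members with reads was −1.20. miR-669a-3p went from 802 to 150 RPM (5.35-fold lower), miR-467d-5p from 370 to 74.9 and miR-467a-5p, the most abundant, from 689 to 378 RPM. These repeats are near-identical, so the values of single members are uncertain. The share of the whole set was 0.609% in ES 2iL and 0.229% in ELA 2iL, and 0.357% and 0.134% in serum.

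Of the clusters of miR-23, miR-27 and miR-24, 4 of 5 members that passed were lower, beside 25.2% over all miRNAs, and none of the 5 was a miR-24. miR-27b-3p was at 23766 RPM in ES 2iL and 9728 RPM in ELA 2iL, 2.44-fold lower, against 20576 and 17171 RPM in serum. miR-23a-3p went from 321 to 123 RPM and miR-27a-3p from 820 to 341 RPM. In the let-7 family 4 of 8 that passed were lower, beside 25.2% over all miRNAs. let-7f-5p went from 1107 to 347 RPM (3.19-fold lower), let-7g-5p from 677 to 269, let-7a-5p from 392.5 to 119 and let-7e-5p from 102 to 25.5 RPM. All of these were higher in both 2iL libraries than in either serum library (5.57 to 92.5 RPM), and the other 4 that passed (let-7d-5p, let-7d-3p, let-7i-5p and miR-98-5p) had intervals that include no change.

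miR-26a-5p went from 25583 to 10132 RPM (2.53-fold lower), whereas in serum it went from 4461 to 6239 RPM. miR-10b-5p, from an intron of Hoxd3 and Hoxd4, went from 2163 to 652 RPM and miR-143-3p, known from smooth muscle, from 4729 to 1886 RPM. In the miR-30 family 4 of 10 were lower by at least 1 and none higher, beside 25.2% lower over all miRNAs. With totals that leave out the 5 most abundant miRNAs 0 of the 10 were lower by at least 1, and with TMM factors 3. The 4 were low-abundance arms (such as miR-30d-3p, 198 to 85.1 RPM, −1.21) and miR-30b-5p (933 to 409 RPM), while miR-30e-5p, the most abundant, went from 15933 to 13443 RPM, a direction lost with totals that leave out the 5 most abundant miRNAs (0.00). miR-16-5p went from 26385 to 17196 RPM and miR-301a-3p from 7674 to 4176 RPM, both under the limit, and miR-195a-5p from 56.7 to 204 RPM (1.83). In the X-linked cluster from miR-322 and miR-503 to miR-450, miR-450b-5p (637.5 to 1605 RPM) and miR-542-3p (178 to 391.6 RPM) were higher and miR-322-3p was lower (92.2 to 35.8 RPM). Its most abundant member, miR-351-5p, went from 3792 to 2070 RPM. The median of its 12 members with reads (−0.45) stayed below 0 under all 4 scalings, and that of its 6 members that passed was above 0 (0.09).

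The 5 miRNAs that the study transfected as mimics against chromatin regulator 3′ UTRs were chosen by the study with these libraries in view, so their direction is not independent evidence. In 2iL, miR-181c-5p (−2.57), miR-150-5p (−2.52) and miR-27b-5p (206 to 68.1 RPM, −1.58) passed the limit. miR-295-5p (844 to 572 RPM, −0.56) and miR-425-5p (726 to 497 RPM, −0.55) did not. All 5 were lower under each of the 4 scalings.

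Some families showed no member past the limit in RPM. The miR-200 family with miR-141, typical of epithelia, had 0 of 6 changed, but 2 higher with TMM factors and with totals that leave out the 5 most abundant miRNAs (miR-141-5p and miR-200b-3p) and 1 with DESeq2 size factors. miR-200b-3p went from 758 to 1355 RPM (0.84) and miR-141-3p from 1744 to 1037 (−0.75). The counting intervals of both exclude no change, so these are differences between libraries of less than 2-fold and not equal levels. The family of miR-130 and miR-301 (0 of 5) and the group of miR-99, miR-100 and miR-125 (0 of 4) were the other such lists with more than 1 member that passed. In the latter, miR-99b-5p went from 4557 to 3146 RPM and miR-99b-3p from 69.0 to 37.5 RPM (−0.86). miR-29a-3p, the 1 member of its family that passed, was at 115 and 90.2 RPM with an interval that includes no change. miR-148a-3p, the most abundant of its family, was at 26101 and 27511 RPM (0.08), and miR-152-5p (173 to 56.2 RPM) and miR-152-3p (81.0 to 35.8 RPM) were lower, the latter by less than 1 with TMM factors and with totals that leave out the 5 most abundant miRNAs.

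A few miRNAs were near absent in 1 of the libraries. miR-670-3p had 0 reads in ES 2iL and 88 in ELA 2iL (150 RPM), at least 138-fold higher against the floor of 3 reads (exact 95% lower bound 110.04), and was at 46.4 RPM in ES serum and 154 RPM in ELA serum. miR-133a-3p, known from muscle, had 0 and 42 reads, at least 66.0-fold higher against the same floor (exact 95% lower bound 51.3). In the other direction, miR-147-3p went from 160 reads to 3, a ratio of ES to ELA of 11.3, and miR-466n-5p from 135 to 3 (9.55). The log2 intervals were −5.79 to −1.93 and −5.55 to −1.68. miR-467d-3p went from 109 reads to 3, miR-1199-5p from 121 to 1 and miR-3078-5p from 80 to 1. With 4.71 times more reads in ES 2iL, a miRNA listed at 0 in ELA 2iL could have stood at up to 5.11 RPM.

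The arms of 1 hairpin mostly moved together. Arms were paired by name. Both arms passed the mean in 77 hairpins, and in 61 of them both differences had the same sign. Pearson's r of the 5p against the 3p difference was 0.83 across the 77 hairpins, which are not independent replicates and share both libraries. In 7 hairpins both arms were higher by at least 1, in 8 both were lower, and in 0 did the arms pass the limit in opposite directions. In 18 hairpins the arms differed by at least 1 from each other. The widest gap was that of miR-341, where the 5p arm went from 14.1 to 73.2 RPM (2.30, interval 1.72 to 3.04) and the 3p arm from 1233 to 1129 RPM (−0.13, interval −0.25 to −0.01, above 0 with TMM factors and with totals that leave out the 5 most abundant miRNAs). miR-409 was next, with 2.45 for the 5p and 0.54 for the 3p arm (6126 to 8920 RPM). miR-345 had 0.68 and −1.20, and miR-141 had 0.98 and −0.75, each with intervals on opposite sides of 0. miR-669a, of the near-identical Sfmbt2-type repeats, had −0.70 and −2.41, and its arms may come from different hairpins. In serum the gap between the arms was 1.90 for miR-669a and −0.17 to 0.54 for the other 4. In miR-341, miR-409, miR-345 and miR-141 the arm with the higher difference was the scarcer arm in ES 2iL, and likewise in miR-669a.

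Markers of other cell types went different ways. miR-122 and miR-126a, of liver and endothelium, had 0 reads in both 2iL libraries. Among 5 blood markers (1 at 0 reads in both), whose summed share was 0.161% in ES 2iL and 0.201% in ELA 2iL, miR-142a-5p was at 1605 RPM in ES 2iL and 1999 in ELA 2iL, while miR-223 and miR-451a were at 1.81 to 6.81 RPM. The 4 neural markers summed to 0.0322% and 0.0272%, and miR-9-5p (156 to 218 RPM) and miR-124-3p (142 to 44.3 RPM, −1.66) went opposite ways. Of 7 muscle markers, miR-133a-3p and miR-1a-3p (1 read in ELA 2iL) were those with reads in either library, with a summed share of 0 in ES 2iL and 0.00732% in ELA 2iL. miR-375-3p, the endoderm marker, is described above. Of these lists, miR-375-3p and miR-133a-3p moved with the miR-302/miR-367 rise, and their part in it was not tested. In pooled RNA, more cells of a type and more RNA per cell cannot be told apart.

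The changes in 2iL were wider than those in serum. Over the 302 miRNAs with a mean of at least 5 over all 4 libraries, the SD of the difference was 1.67 in 2iL and 0.99 in serum, and the median was −0.17 and 0.00. The distance between the media shrank, with an SD of 2iL minus serum of 1.82 in ES cells and 1.16 in ELA. Both are descriptions across miRNAs, and the part of counting error in ELA 2iL, the shallowest library, was not tested. The difference between the changes was at least 2 in size for 25 miRNAs: 18 had the higher value in 2iL and 7 the lower.

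The 5 with the largest gap among the 18 were miR-670-3p, miR-302a-5p, miR-449c-5p, miR-302d-3p and miR-302d-5p, with 3.62 to 5.53 between the media. For miR-302a-5p the difference was 7.12 in 2iL and 2.46 in serum. Among the 7 they were miR-211-5p (−4.71 in 2iL and −0.72 in serum), miR-138-5p, miR-218-5p, miR-671-3p and miR-152-5p. miR-138-5p was at 216 RPM in ES 2iL and 47.7 in ELA 2iL, but at 12.04 in ES serum and 25.3 in ELA serum. miR-218-5p was at 249.7 and 109 RPM in 2iL and at 49.6 and 188 RPM in serum. With 1 library in each group, the difference between the media has no test.

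**Figure D5:**
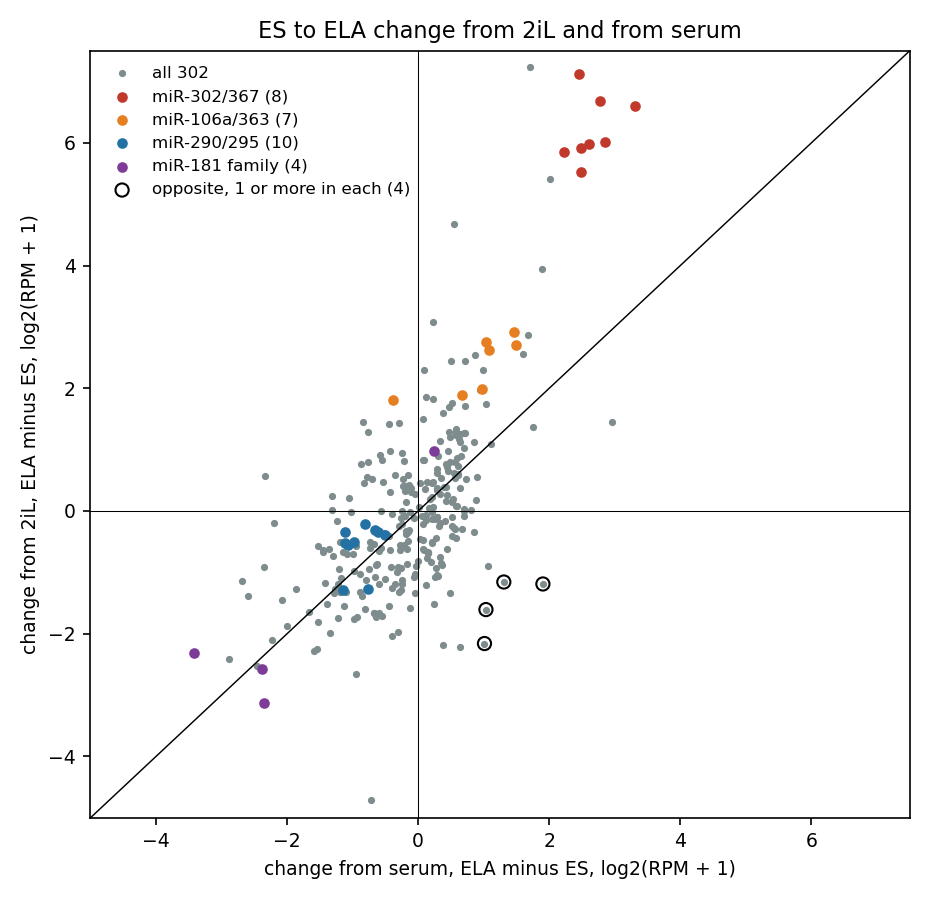
Difference ELA minus ES on log2(RPM + 1) from serum (x axis) and from 2iL (y axis) for the 302 miRNAs with a mean of at least 5 over the 4 libraries, 1 library per group. The diagonal marks equal change. Members of miR-302/miR-367 and miR-106a/miR-363 lie above it, miR-290/miR-295 members lie within 1 of it, miR-181c and miR-181d are lower from both media, and open circles mark the 4 miRNAs that changed by at least 1 in opposite directions.

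The fit that these data allow takes all 4 libraries, with stage and medium as terms, and so tests the stage averaged over both media. It leaves 1 residual degree of freedom for each miRNA, which holds how far the change in 2iL differs from that in serum. limma called 0 of the 599 miRNAs tested (0%), with 125 at an unadjusted p under 0.05 and a smallest adjusted p of 0.133. On the recovered reads edgeR's quasi-likelihood test called 39 (6.51%) and DESeq2 50. Of the 127 miRNAs changed in 2iL, edgeR called 11 of the 48 higher and 8 of the 79 lower, 19 in all, and DESeq2 called 32. As the 2iL libraries are part of the fit, this is not independent of the choice of the 127. miR-302d-3p had an edgeR adjusted p of 0.00547, miR-181c-5p of 0.00893, miR-375-3p of 0.00674 and miR-20b-5p of 0.0127, while miR-211-5p had 0.0502 and miR-19a-3p 0.0502. With DESeq2 the adjusted p of these last 2 was 0.0102 and 0.0171. The adjusted p of limma was 0.133 to 0.226 for these 6.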

How the data were processed

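Small RNA libraries (TruSeq Small RNA, 1 µg of total RNA, pooled over 3 sets of experiments) were made by the authors from E14Tg2A ES cells in serum or 2iL and from the ELA derived from each. Per the labels and the study's methods, the authors used CASAVA 1.8 for base calling, trimmed adaptors with Trimmomatic, mapped reads to mm9 (NCBI37) with Bowtie, assigned them to mature miRNAs of miRBase 20 with featureCounts and deposited RPM values, which are reads scaled to a common total over the listed miRNAs. An RPM value is therefore a share of its library: a gain of abundant miRNAs lowers the RPM of all others, and no amount per cell is measured. Mismatches, strand and the treatment of reads that match several miRNAs are not given in the sources used here. All 4 columns of values were used and 0 were left out.

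All values above 0 were whole multiples of 1 read (100% within 0.01 read in each library), which gave back the reads: 2767016 in ES 2iL, 587363 in ELA 2iL, 8056984 in ES serum and 4309257 in ELA serum. Groups follow titles, source names and characteristics. The description field exchanges ES 2iL and ELA serum and was not used.

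The miRNAs, lists and limits were chosen with earlier results of these data known. Differences are on log2(RPM + 1). The limits of 5 for the mean and 1 for the difference are those of the study. Ratios have exact (Clopper-Pearson) and shares Wilson 95% intervals, both covering counting error only, since reads carry no molecular identifiers. Named miRNAs are: the 12 largest rises and 12 largest falls with an interval clear of 0 and 1 direction under all 4 scalings, the 5 most abundant of each library, all members of miR-302/miR-367 and miR-290/miR-295, the 5 transfected miRNAs, from each list the most abundant and the most changed member, the 5 seed pools of largest share and of largest change, the 5 hairpins whose arms differ most, the 5 at no more than 3 reads in a library with most reads in the other, and the 5 in each direction that differ most between the media. Other members are given as examples of the lists.

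Scalings were RPM, TMM, DESeq2 size factors and totals without the 5 most abundant miRNAs. The stage term was fitted with limma 3.58.1 on log2(RPM + 1), because the values are RPM, with Benjamini-Hochberg adjustment at 0.05, for miRNAs that had 10 or more reads in 2 or more libraries. edgeR 4.0.16 and DESeq2 1.42.0 on recovered reads were alternatives (R 4.3.3, Python 3.11.15). With 1 pooled library per group, the residual of the stage fit is how far the stage change differs between the media. The p-values are read against that and measure no spread between experiments. The statistics were tested on simulated data. Mature sequences are those of RefSeq (GRCm38.p6), found for 1623 of 1907 names. Positions are exact matches of 74 RefSeq hairpins to NCBIM37 (mm9), each found once on its chromosome, with genes from GENCODE vM1.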

Additional observations from a re-analysis of the deposited data

Results flagged for a closer look

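For 4 miRNAs the change was at least 1 on the log2 scale in both media and in opposite directions, lower in ELA 2iL than in ES 2iL and higher in ELA serum than in ES serum. With 1 library per group this difference was not tested. In 2iL, miR-218-5p fell short of 1 with totals that leave out the 5 most abundant miRNAs (−0.94), and miR-152-3p with those totals (−0.91) and with TMM factors (−0.99). The change in 2iL minus the change in serum was −3.17 for miR-138-5p, −3.09 for miR-218-5p, −2.64 for miR-152-5p and −2.46 for miR-152-3p. miR-152-5p went from 173 to 56.2 RPM in 2iL and from 11.0 to 23.7 RPM in serum, and miR-152-3p, the other arm of that hairpin, from 81.0 to 35.8 and from 24.8 to 62.9 RPM. All 4 were highest in ES 2iL and lowest in ES serum.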

How the results depend on the processing

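The median difference of −0.30 became −0.14 with TMM factors, −0.18 with DESeq2 size factors, −0.0521 with totals that leave out the 5 most abundant miRNAs, −0.45 with no filter and −0.15 with at least 10 reads in each library. With no filter (1010 miRNAs with a read in either library) 160 were higher and 285 lower. With the nearer bound of the counting interval past the limit, 50 were lower. In the other settings the counts of higher and lower miRNAs stayed within 1.5 times the reported ones. The seed pool changes turned to 0.0847 (AAGUGCU) and −0.389 (AUUGCAC) percentage points without the most abundant member of each pool. The stage term over 4 libraries passed 39 miRNAs with edgeR, 50 with DESeq2 (47 without an adjusted p) and 99 with limma and no filter on low values. With the filter limma called 0, so the 99 depend on letting in miRNAs of few reads and are not read as a result. Of 94 named miRNAs, 60 stayed within their counting interval with TMM factors, 66 with DESeq2 factors and 48 with totals without the 5 most abundant. With a pseudocount of 0.5 RPM 94 did, and with 5 RPM 85. None past the limit changed direction in these settings, which was fixed in advance for differences of that size. The medians of 6 lists changed sign under at least 1 setting: miR-106b/miR-25, miR-183 with miR-96 and miR-182, miR-322 to miR-450, miR-29, miR-130 with miR-301, and neural miRNAs. ELA 2iL had the fewest reads, so falls to low levels have the widest intervals. No pairing by experiment was possible because each group has 1 pooled library. The fit of stage with medium as a term, over all 4 libraries, pairs ES cells with ELA by medium alone. With 1 library per group, no library could be left out of the comparison.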

Other observations

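The list of neural miRNAs held members that went opposite ways. Of its 26 members with reads 8 passed the mean, 4 of them lower in ELA 2iL (3 with TMM or DESeq2 factors and 2 with totals that leave out the 5 most abundant miRNAs) and none higher, beside 25.2% lower over all miRNAs: miR-138-5p, miR-124-3p, miR-218-5p and miR-128-3p (570 to 284 RPM). miR-135b-5p, the most abundant, went from 481 to 637 RPM. Among those under the mean, miR-135a-5p went from 2.89 to 20.4 RPM in 2iL and from 3.10 to 20.7 RPM in serum, and miR-153-3p from 13.4 to 44.3 and from 17.0 to 42.9 RPM. miR-129-5p went from 7.59 to 35.8 RPM in 2iL and from 45.1 to 63.1 RPM in serum. These 3 were chosen after their values were seen.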
